A study of Mus musculus with 2 samples.

Results

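The genes described here encode 7 lysosomal glycosidases, Glb1, Hexa, Gaa, Gusb, Man2b1, Manba and Fuca1. They were taken from a fixed list of names, which was set with earlier results of these data known. All 7 had a probe set naming them alone, out of 19938 genes with such a probe set. Total RNA of mouse wound cells, taken 1 week after wounding from skin scar tissue of TCF reporter mice, was hybridised to Affymetrix Mouse Gene ST arrays. The cells were labelled B-Gal positive or B-Gal negative, with 1 array for each label, so no difference below has a replicate error or a p-value. Both groups carried the reporter, read here as a transgene that puts beta-galactosidase under the control of TCF transcription factors, and no other genotype or treatment was given for either. The sources used here give neither the method of separating the cells nor the number or age of the mice, and the design text describes homogenised wound tissue.

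Lysosomal glycosidases are acid hydrolases that take sugars one at a time from the ends of glycoproteins, glycolipids, glycosaminoglycans and glycogen, and their inherited loss causes lysosomal storage disease. Most reach the lysosome by a mannose 6-phosphate tag, and macrophages, which digest engulfed cells and matrix, are rich in them. Glb1 encodes the mouse's own beta-galactosidase, which removes galactose from the ganglioside GM1, from keratan sulfate and from glycoproteins, and it is the source of the acid beta-galactosidase activity used as a stain for senescent cells. The bacterial enzyme of lacZ reporters belongs to another family of glycoside hydrolases, one that also holds beta-glucuronidase (Gusb) and beta-mannosidase (Manba). A stain for beta-galactosidase activity can therefore read the reporter and, depending on its pH, the Glb1 product. No probe set was annotated as lacZ, so the reporter itself was not analysed here.

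In the deposited values 3 of the 7 genes were at least 2-fold higher in the B-Gal positive array and 0 at least 2-fold lower. Hexa, Man2b1 and Gusb were 3.05-fold, 2.96-fold and 2.65-fold higher, while Manba, Glb1 and Fuca1 differed by less than 1.5-fold and Gaa was 1.72-fold lower. With the arrays centred on the receptor genes described next, the 3 stayed past 2-fold and Gaa passed it too on the lower side, at a log2 difference of -1.06. The share of the 13784 expressed genes that was at least 2-fold higher was 9.92%, and 12.7% were at least 2-fold lower. With that centring the shares were 6.91% higher and 17.3% lower, of the 13856 genes then counted as expressed. Values were higher in B-Gal positive cells by any amount for 6 of the 7 genes, or 5 with that centring, against 53.9% of expressed genes in the deposited values. The median difference of the 7 genes, as the log2 value in B-Gal positive minus that in B-Gal negative cells, was 0.51, and that of all expressed genes was 0.06. A gene was counted as expressed if 1 array lay above a floor of 5.59 on the log2 scale, the 95th percentile reached by 1196 genes of olfactory and vomeronasal receptors. All 7 genes lay above the floor in both arrays. More cells of a type and more RNA of a gene per cell cannot be told apart in such arrays.

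The start regions of 3 of the genes are printed because they belong to the genes with the highest and the lowest difference, Hexa and Gaa, and to the mouse's own beta-galactosidase gene, Glb1. Each window runs from 250 bases before to 50 bases after the gene's start, 5′ to 3′ on the gene's strand, from RefSeq on GRCm38.p6. The Hexa window is chr9:59539290-59539589, that of Glb1 is chr9:114400828-114401127 and that of Gaa is chr11:119267713-119268012, all on the plus strand. Capitals mark the E-box CACGTG and the GC box GGGCGG, searched on both strands.
Hexa: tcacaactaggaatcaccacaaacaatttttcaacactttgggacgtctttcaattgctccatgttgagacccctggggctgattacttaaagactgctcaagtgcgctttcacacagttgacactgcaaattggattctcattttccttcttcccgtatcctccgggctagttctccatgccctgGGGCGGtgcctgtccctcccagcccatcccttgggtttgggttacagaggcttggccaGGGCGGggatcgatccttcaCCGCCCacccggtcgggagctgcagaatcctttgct
Glb1: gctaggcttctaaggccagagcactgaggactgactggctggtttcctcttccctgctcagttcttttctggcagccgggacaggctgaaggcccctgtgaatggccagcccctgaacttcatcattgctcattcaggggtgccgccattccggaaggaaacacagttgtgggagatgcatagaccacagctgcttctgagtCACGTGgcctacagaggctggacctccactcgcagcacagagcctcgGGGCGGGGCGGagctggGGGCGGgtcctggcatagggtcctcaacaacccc
Gaa: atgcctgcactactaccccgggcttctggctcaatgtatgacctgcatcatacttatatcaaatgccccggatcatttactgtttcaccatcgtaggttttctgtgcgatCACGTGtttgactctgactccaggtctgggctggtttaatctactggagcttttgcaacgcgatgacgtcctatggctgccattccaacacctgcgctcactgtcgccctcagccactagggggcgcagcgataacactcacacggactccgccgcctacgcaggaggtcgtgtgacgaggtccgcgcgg
The E-box is the core of the element that MiT/TFE factors, regulators of lysosomal genes in human cells, bind, and other factors bind it too. It lay 48 bases before the start of Glb1 and 140 bases before that of Gaa. The windows of the other 5 genes, Hexa, Man2b1 and Gusb among them, did not hold these letters. Across 32851 windows of the same length, 7.15% held it. GC boxes, sites of the housekeeping factor Sp1, were in the windows of 5 of the 7 genes, all but Gaa and Gusb, and in 35.7% of all windows. In Glb1 and Hexa there were 3 each. The core letters of TCF and LEF sites, CTTTGA, searched on both strands, were in the windows of 0 of the 7 genes and in 16.0% of all windows. GAGGAAGT, a form of the site of PU.1, the myeloid lineage factor, lay on 1 strand of the Gusb window, starting 38 bases into the gene, and was in 3.20% of all windows. The shares over all windows include genes not expressed here and windows of other base content. These matches describe letters in the windows and were not tested for use by any factor.

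Glb1 had a log2 value of 9.08 in B-Gal positive cells, against 8.76 in B-Gal negative cells. This is a difference of 0.32, or 1.25-fold, in the direction of the B-Gal positive array. The 2203 expressed genes with a mean within 0.5 of that of Glb1 had a median of 0.11. The difference of Glb1 was above that of 62.2% of them and of 68.2% of all expressed genes. The receptor genes that set the floor, sensory genes with little known use in skin, had a median difference of 0.28, with 5th and 95th percentiles of -0.31 and 0.83. The difference of Glb1 lay near the middle of that range, and centring the arrays on the receptor genes left a difference of 0.03. Most values of the receptor genes lay under the floor of 5.59, far from those of Glb1. Their spread and median describe dim probe sets and need not hold at the level of Glb1. Loess scaling, which follows the level, left a Glb1 difference of 0.24.

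**Figure D1:**
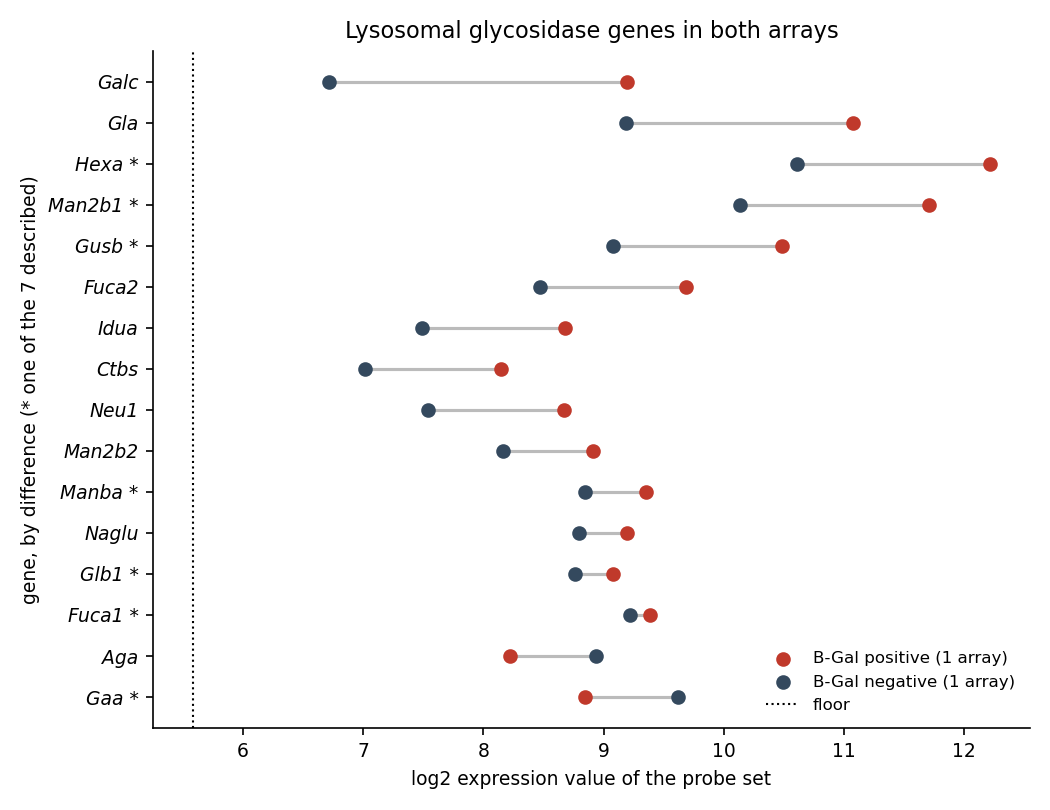
Log2 expression values (horizontal axis) of the 16 genes listed as lysosomal glycosidases in the B-Gal positive array (red) and the B-Gal negative array (dark blue). Genes are ordered from the highest to the lowest difference. The 7 genes described here are marked by an asterisk and the floor is a dotted line. Red lies to the right for 14 of the 16 genes, Aga and Gaa are the 2 with red to the left, and Glb1 is the 13th from the top; Fuca1 also turns to the left when the arrays are centred on the receptor genes.

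Hexa, the alpha subunit of beta-hexosaminidase A, which takes the next sugar from the glycolipid that Glb1 leaves, GM2, had the largest difference of the 7 genes. Its log2 value was 12.21 in B-Gal positive cells, against 10.61 in B-Gal negative cells. Its difference of 1.61 exceeded that of Glb1 by 1.29, and 95.3% of expressed genes lay below it. Gm2a, the activator protein that lifts GM2 out of the membrane for this enzyme, had 11.45 in B-Gal positive and 9.73 in B-Gal negative cells, a difference of 1.72. Of these consecutive steps of ganglioside breakdown, Glb1 was 1.25-fold and Hexa 3.05-fold higher.

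Man2b1, the lysosomal alpha-mannosidase, which trims the mannose branches of N-glycans, had a log2 value of 11.71 in B-Gal positive cells, against 10.14 in B-Gal negative cells. The difference was 1.57, and 95.1% of expressed genes lay below it, or 88.6% of the 378 with a mean within 0.5 of that of Man2b1. Manba, the beta-mannosidase that cleaves the last mannose of the N-glycan core, had 9.36 in B-Gal positive and 8.85 in B-Gal negative cells. Its difference of 0.51, or 1.42-fold, was 1.06 smaller than that of Man2b1 on the log2 scale. Man2b2, a mannosidase that acts on the branch of the N-glycan core, lay between them at 8.91 in B-Gal positive and 8.16 in B-Gal negative cells, a difference of 0.75.

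Gusb, the beta-glucuronidase of glycosaminoglycan breakdown, had a log2 value of 10.49 in B-Gal positive cells, against 9.08 in B-Gal negative cells. Its difference was 1.41, above 94.0% of expressed genes and 89.0% of the 1168 with a mean within 0.5 of that of Gusb. Idua, the iduronidase of heparan and dermatan sulfate, had 8.68 in B-Gal positive and 7.49 in B-Gal negative cells, a difference of 1.19. Naglu, which removes N-acetylglucosamine from heparan sulfate, had 9.20 in B-Gal positive and 8.80 in B-Gal negative cells, a difference of 0.40. Idua was thus 2.28-fold higher, a difference that fell under 2-fold (0.91 on the log2 scale) after centring on the receptor genes, and Naglu was 1.32-fold higher. Naglu was also the gene closest to Glb1 by its pair of values, at a Euclidean distance of 0.13 over the 2 arrays among 68 expressed genes of the lysosome lists. The next closest were Ctso, a cysteine cathepsin (0.16), Manba (0.29), Gnptab, the enzyme that starts the mannose 6-phosphate tag (0.33), and Plbd2, a phospholipase B-like protein (0.46). Values of different probe sets depend on their probes, so closeness describes these 2 arrays and not equal amounts of RNA.

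Fuca1, the lysosomal alpha-fucosidase, had log2 values of 9.39 in B-Gal positive and 9.22 in B-Gal negative cells. Its difference of 0.17 was the smallest in size of the 7 genes, and it turned to -0.12 when the arrays were centred on the receptor genes. Fuca2, a related fucosidase known mainly as a secreted protein in human, had 9.69 in B-Gal positive and 8.47 in B-Gal negative cells. The Fuca2 difference of 1.22, or 2.33-fold, exceeded that of Fuca1 by 1.05.

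Gaa, the acid alpha-glucosidase that frees glucose from lysosomal glycogen, was the only one of the 7 genes with a lower deposited value in B-Gal positive cells; after centring on the receptor genes Fuca1 was lower too, and Gaa passed the 2-fold mark at -1.06. Its log2 value was 8.84 in B-Gal positive cells, against 9.62 in B-Gal negative cells. The difference of -0.78 is 1.72-fold lower, and 16.1% of expressed genes lay below it. Among expressed genes 20.1% were at least 1.5-fold lower and 18.8% at least 1.5-fold higher, while of the 7 genes 1 and 3 were. The 7 differences spanned 2.39 on the log2 scale from Gaa to Hexa.

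**Figure D2:**
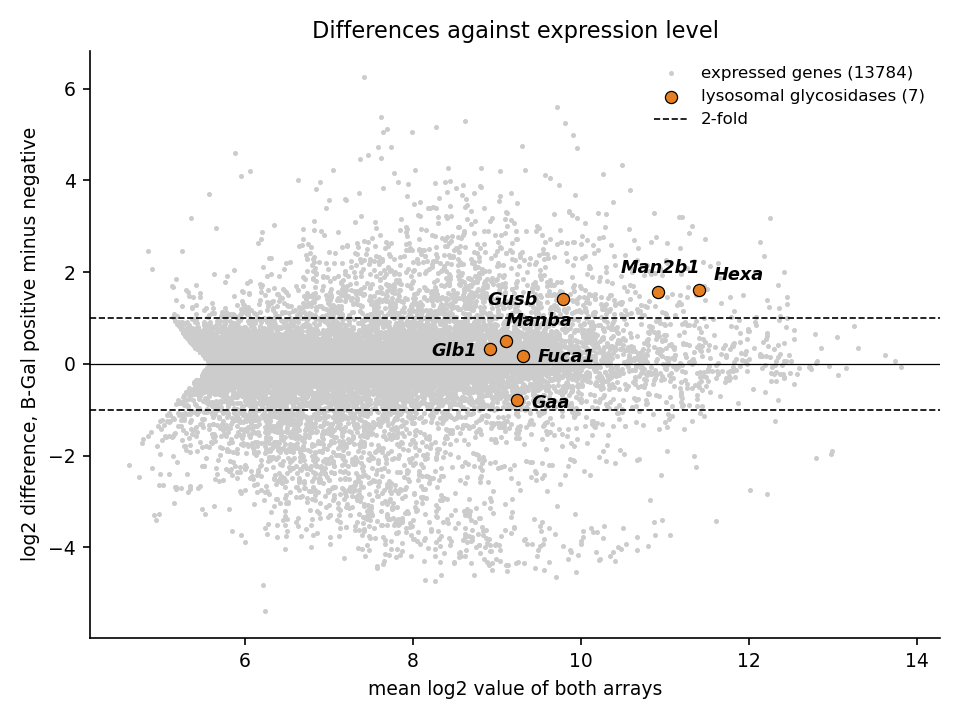
Log2 difference, B-Gal positive minus B-Gal negative (vertical axis), against the mean log2 value of both arrays (horizontal axis) for 13784 expressed genes (grey) and the 7 glycosidase genes (orange), with 2-fold differences as dashed lines. Hexa, Man2b1 and Gusb lie above the upper line at mean values to the right of the other 4 genes, which lie between the lines; with the arrays centred on the receptor genes Fuca1 lies under 0 and Gaa under the lower line.

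The other lysosomal glycosidases were read from a list of 13 genes, of which 9 had a probe set of their own. By the same 2-fold mark 6 of these 9 were higher and 0 were lower, and their median was 1.13. After centring on the receptor genes 2 of the 9, Galc and Gla, were at least 2-fold higher, against 6.91% of expressed genes. Their median was then 0.85. Galc, which removes galactose from galactosylceramide and so shares the sugar but not the main substrate of Glb1, had 9.20 in B-Gal positive and 6.72 in B-Gal negative cells. Its difference of 2.48, or 5.57-fold, was the largest of the 16 genes listed as lysosomal glycosidases and exceeded that of Glb1 by 2.16. These 16 count the amidase Aga and leave out the lysozyme gene Lyz2, 6.34-fold higher, which is kept with the other hydrolases below. Gla, the alpha-galactosidase of globotriaosylceramide, had 11.07 in B-Gal positive and 9.19 in B-Gal negative cells, which is 3.69-fold higher. Ctbs, a chitobiase of the N-glycan core, was 2.19-fold higher. Aga, an amidase that cuts the link between glycan and asparagine, was 1.64-fold lower, with 8.22 in B-Gal positive and 8.94 in B-Gal negative cells.

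By its difference, counted from the highest, Glb1 was 5th of the 7 genes and 13th of the 16 listed lysosomal glycosidases. It was 54th of the 68 expressed genes of the lysosome lists. Its difference lay 0.81 under the median of the 16, which was 1.13. Of the genes named for likeness to beta-galactosidase, Glb1l had 7.38 in B-Gal positive and 7.63 in B-Gal negative cells, a difference of -0.24. Glb1l2 and Glb1l3 lay under the floor in both arrays, at 4.05 and 3.39 in B-Gal positive and 3.93 and 3.02 in B-Gal negative cells on the log2 scale. In the lysosome the Glb1 enzyme is held in a complex with Ctsa, the protective protein cathepsin A, and Neu1, the lysosomal sialidase. Ctsa had 11.83 in B-Gal positive and 10.52 in B-Gal negative cells, and Neu1 had 8.67 in B-Gal positive and 7.54 in B-Gal negative cells. The partners were thus 2.47-fold and 2.19-fold higher, each by more than Glb1.

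The remaining lists place the 7 genes within the lysosome. Some genes stand in more than 1 list, so the counts of the lists are not separate. Of the partners, Neu1 is also among the other lysosomal glycosidases and Galns among the sulfatases. Ctsa is also among the cathepsins and Scarb2 among the membrane proteins. Cd68 of the membrane proteins is also among the macrophage markers. The B-Gal positive array had the higher value for all 6 partners and activators of glycosidases, and for 4 the difference was at least 2-fold, including Scarb2, a lysosomal membrane protein that acts as a sorting receptor (2.33-fold). Galns, a sulfatase of keratan sulfate, was 1.95-fold higher, and Psap, the precursor of the saposin activators, was 1.78-fold higher. Of 7 genes of lysosomal sulfatases, their activator and the heparan acetyltransferase, 1 was at least 2-fold higher, Sgsh of heparan sulfate breakdown (2.26-fold), and Arsa, the sulfatase of sulfatide, was the lowest (1.82-fold lower). Of 5 genes of mannose 6-phosphate tagging and sorting 2 were at least 2-fold higher, with Sort1, a sorting receptor, the highest (2.82-fold) and Igf2r, the large mannose 6-phosphate receptor, the lowest (1.61-fold lower). These lists had medians of 1.17, 0.65 and 0.77. After centring on the receptor genes 2 of the 6 partners, 0 of the 7 sulfatase genes and 1 of the 5 sorting genes were at least 2-fold higher. At least 2-fold lower were 2 of the sulfatase genes. Of all expressed genes 6.91% were then at least 2-fold higher and 17.3% at least 2-fold lower.

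Among 14 other lysosomal hydrolases 9 were at least 2-fold higher, with Lyz2, the lysozyme of macrophages, the highest (6.34-fold higher) and Smpd1, the acid sphingomyelinase, the lowest (1.32-fold lower). Of 11 cathepsins 6 were at least 2-fold higher and 2 at least 2-fold lower, with Ctss, a protease of antigen processing, at 5.08-fold higher and Ctsf at 2.47-fold lower as the extremes. Of 13 lysosomal membrane proteins 7 were at least 2-fold higher, with Cd68, a macrophage marker, at 9.77-fold higher and Laptm4a at 1.30-fold lower as the extremes. Their medians were 1.51, 1.24 and 1.10. With the arrays centred on the receptor genes, 9, 5 and 5 genes of these 3 lists were at least 2-fold higher, against 6.91% of expressed genes. The median of the 7 glycosidase genes was 0.51, or 0.96 without Glb1, and differences between lists were not tested.

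The lists of glycosidases and related enzymes outside the lysosome had lower medians. The 14 genes of glycan trimming and quality control in the secretory pathway had a median of -0.21. Of these 1 was at least 2-fold higher, Man1c1, a Golgi alpha-mannosidase (3.25-fold), and none at least 2-fold lower. After centring on the receptor genes 3 of the 14 were at least 2-fold lower, against 17.3% of expressed genes. Prkcsh, the beta subunit of glucosidase II of the endoplasmic reticulum, had the lowest difference, -0.97. The 8 genes of cytosolic and other glycosidases and related enzymes had a median of 0.34 and none that differed 2-fold. They ran from Engase (0.76), which releases glycans in the cytosol, to Pygb, a glycogen phosphorylase and not a glycosidase (-0.24). Ganab, the alpha subunit of glucosidase II and a relative of Gaa by sequence family, differed by -0.76, close to the -0.78 of Gaa.

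**Figure D3:**
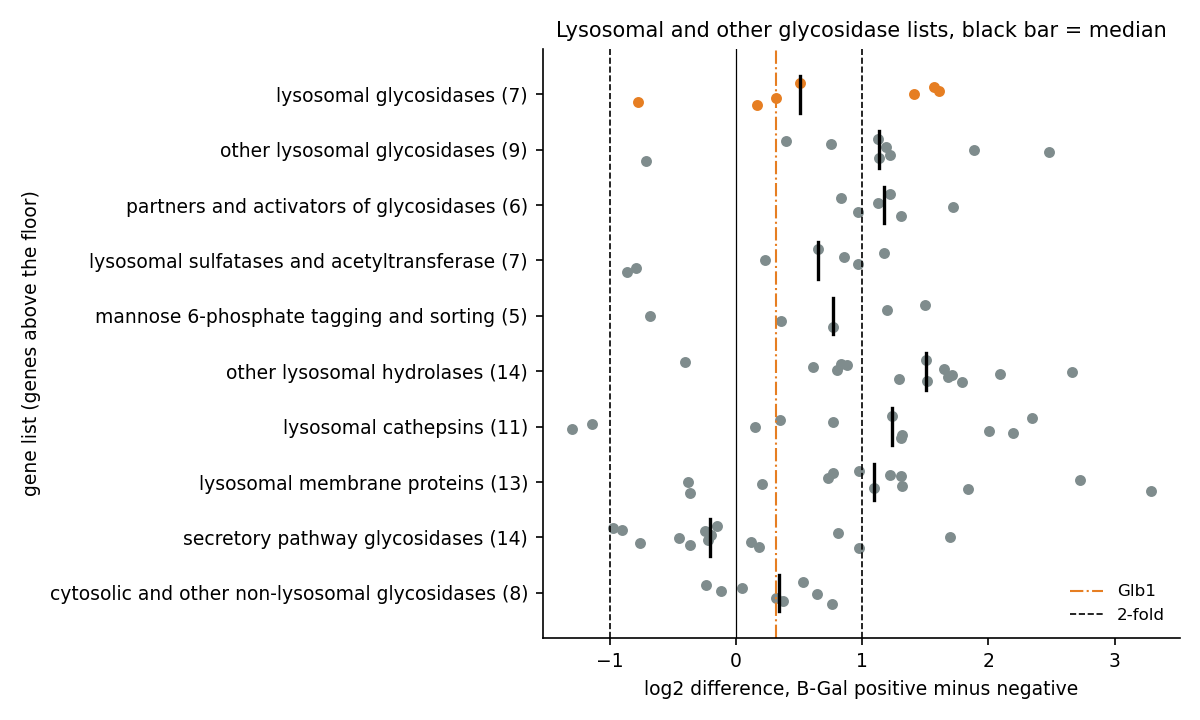
Log2 difference, B-Gal positive minus B-Gal negative (horizontal axis), of every gene above the floor in 10 lists, with the median of each list as a black bar, 2-fold differences as dashed lines and Glb1 as an orange line. The 7 glycosidases described here (orange, top row) fall into 3 genes past the 2-fold line and 4 nearer to or under 0, and the secretory pathway list is the 1 list with a median under 0.

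The promoter windows of the wider lysosome lists were read the same way. Of 61 expressed lysosome genes other than the 7, 52 had at least 1 window, and 16 of these held CACGTG in a window. By windows, 26.6% of their 64 held it, against 7.15% of all windows. All windows include those of genes not expressed here. Shares among expressed genes, or among windows of like base content, were not computed. The 16 genes with the E-box had a median difference of 0.97 and ran from -1.30 to 2.01, and the 36 without it had a median of 1.13 and ran from -1.14 to 3.29. The ranges overlapped over most of their length. Gla held it and was 3.69-fold higher, and Naglu, 1.32-fold higher, held it 73 bases before its start.

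Macrophage markers were higher in B-Gal positive cells, and their part in the differences of the 7 genes was not tested. The 2-fold mark was passed on the higher side by all 12 macrophage markers, against 9.92% of expressed genes. With the arrays centred on the receptor genes all 12 still passed it, against 6.91%. Their summed linear value was 45688 in B-Gal positive and 3133 in B-Gal negative cells. Values ran from 10.26 to 12.52 in B-Gal positive and from 4.29 to 9.90 in B-Gal negative cells. In the B-Gal negative array Cd163 and Ms4a7 lay under the floor, and no marker was at 0. Cd163, a haemoglobin scavenger receptor, was at least 30.9-fold higher against the floor, and Mrc1, the mannose receptor, was 48.5-fold higher. The median of the 12 was 4.72, or 4.68 with the values of those 2 genes set to the floor.

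All 8 fibroblast markers were at least 2-fold lower in B-Gal positive cells, with summed linear values of 14395 in B-Gal positive and 75436 in B-Gal negative cells. Pdgfra, a growth factor receptor of fibroblasts, was 20.0-fold lower and Dpt, the dermatopontin gene, 19.4-fold lower, and all 8 lay above the floor in both arrays. Of the other lists, markers were counted if at least 1 array lay above the floor. At least 2-fold lower were also 5 of 6 endothelial, 2 of 5 keratinocyte, 5 of 5 mast cell, 3 of 5 neutrophil and 2 of 5 T cell markers. Of all expressed genes 12.7% were at least 2-fold lower. After centring on the receptor genes 3 of 5 T cell markers were, the other counts of lower markers stayed, and the share was 17.3%. Of these lists, 1 neutrophil and 1 T cell marker were at least 2-fold higher on the deposited values; for the neutrophil marker, Mmp8, the B-Gal negative value did not reach the floor, and against the floor it was at least 1.56-fold higher. Endothelial markers summed to 574 in B-Gal positive and 1906 in B-Gal negative cells and mast cell markers to 283 in B-Gal positive and 2325 in B-Gal negative cells. The sums of keratinocyte markers were 315 in B-Gal positive and 508 in B-Gal negative cells, those of neutrophil markers 689 in B-Gal positive and 1545 in B-Gal negative cells, and those of T cell markers 326 in B-Gal positive and 591 in B-Gal negative cells. These sums include values under the floor. In B-Gal positive cells 3 mast cell, 2 keratinocyte, 2 neutrophil and 2 T cell markers lay under it. In B-Gal negative cells 1, 1, 2 and 0 did. Such sums hold dim signal and need not be marker RNA.

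**Figure D4:**
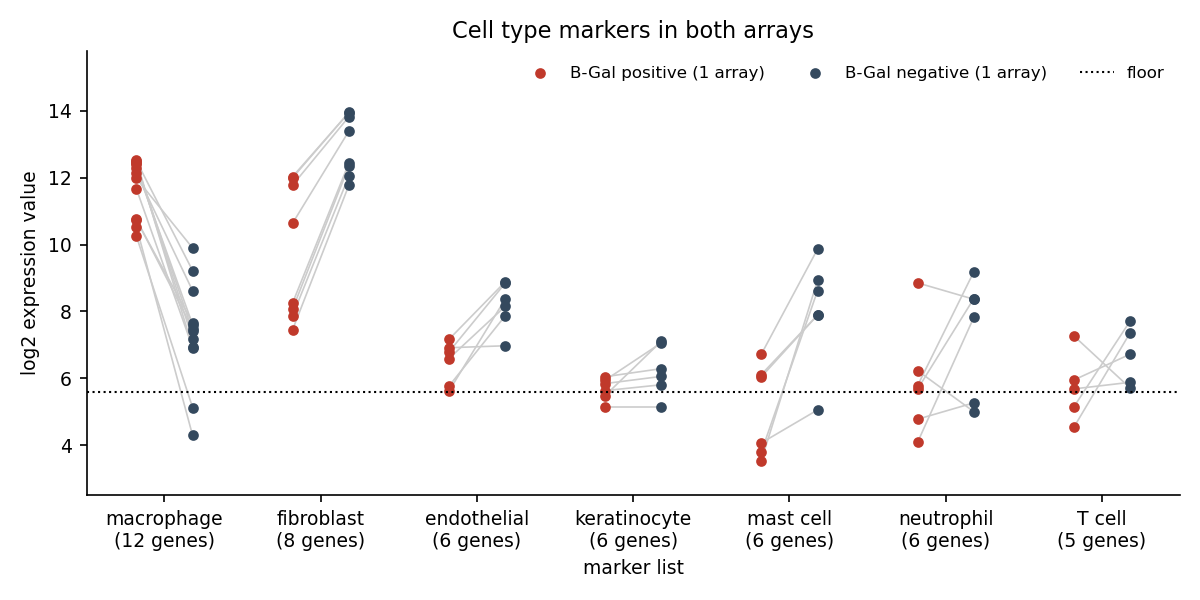
Log2 expression values (vertical axis) of 7 lists of cell type markers in the B-Gal positive array (red, left of each pair) and the B-Gal negative array (dark blue, right), with each gene's pair of values joined by a line and the floor dotted. All 12 macrophage markers are higher on the left and all 8 fibroblast markers are lower on the left.

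The zero point of the differences depends on the scaling of 2 arrays. Loess scaling set the median of expressed genes at -0.04, and centring on the receptor genes set it at -0.24, against 0.06 in the deposited values. The floor, and with it the set of expressed genes, was taken anew under each scaling. Of the expressed genes past 2-fold, 43.8% were higher in B-Gal positive cells in the deposited values and 28.5% after centring on the receptor genes. Relative to the median of expressed genes in the deposited values, the differences ran from 1.54 for Hexa to -0.84 for Gaa, with 1.35 for Gusb, 0.45 for Manba, 0.25 for Glb1 and 0.10 for Fuca1.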

How the data were processed

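The deposited table holds 1 log2 expression value per probe set and array for 28853 probe sets. The submitters' processing notes name Partek. The steps behind the values (probe summary, background and scaling) and the base of their logarithm are unstated in the sources read. The log2 scale was inferred from the deposited values, which ran from 1.16 to 14.8 with medians of 6.16 for B-Gal positive and 6.18 for B-Gal negative cells. Every fold depends on that reading. The number of arrays limits the precision, and no test was made.

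From these values, probe sets naming 1 gene in the platform annotation (21789) were kept, those naming several (1621) or not listed (5443) were left out, and of several per gene the one with the highest mean was used. Each of the 7 genes had 1. Of the symbols, 21698 matched a RefSeq table of GRCm38.p6 by gene ID and 0 differed. Differences are B-Gal positive minus B-Gal negative, with no added scaling. The procedure was tested on data made with known shifts. RefSeq start windows matched all 7 genes. Python 3.11.15, numpy 2.4.6, pandas 2.3.3 and statsmodels 0.14.6 were used.

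The 7 genes and the 18 lists were chosen with earlier results of these data known, and the motifs after the values were seen. Named by rule were the 7 genes, the other lysosomal glycosidases, beta-galactosidase-like genes and partners, the highest and lowest member of each other lysosomal or glycosidase list, the 2 markers with the largest differences per cell type, and the 5 genes nearest to Glb1. Markers other than macrophage and fibroblast ones are given as counts. Ganab, and Ms4a7 and Mmp8 as markers under the floor, are named outside this rule, after their values were seen. Alternatives were centring of medians, loess (span 0.4, 3 iterations), quantile normalization, an offset of 32, other floors, probe set means, thresholds of 1.5-fold and 4-fold and, added after the data were seen, centring on the receptor genes.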

Additional observations from a re-analysis of the deposited data

How the results depend on the processing

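Of 84 values recomputed under 12 alternatives, 81 were classed as unchanged. For a difference this means the same direction and the same side of the 2-fold threshold, and its size could still move, as for Glb1 from 0.32 to 0.03. The other floors and the probe set means returned the deposited values for the 7 genes. These settings could not change a result and count among the 81. The count of the 7 genes at least 2-fold higher was 3 under every scaling, filter and probe set choice tried and at 1.5-fold, and 0 at a threshold of 4-fold. The 4-fold count is lower because the largest difference of the 7 genes is 3.05-fold. Glb1 was 5th of the 7 genes under all 8 alternatives run for it, with differences from 0.03 to 0.34. It was 13th of the 16 listed lysosomal glycosidases under the same alternatives. Centring moves every difference by the same amount, and the floors and probe set means left these values as deposited. Only loess, quantile normalization and the offset could therefore change these ranks. The median of the 7 genes ran from 0.22, with centring on the receptor genes, to 0.96, without Glb1. Centring on the receptor genes, an alternative added after the data were seen, moved the difference of every gene by 0.28 and the floor to 5.41. It turned Fuca1 to -0.12 and took Gaa to -1.06, past 2-fold lower. It left 5 of the 16 listed lysosomal glycosidases at least 2-fold higher, against 9 in the deposited values. The share of all expressed genes at least 2-fold higher went from 9.92% to 6.91%, and the share lower from 12.7% to 17.3%. No paired analysis was possible because each group has 1 array, and for the same reason no array could be left out. Depth cannot be given for arrays. All 7 genes lay above the floor in both arrays under every alternative, so dim signal limits none of them.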

Other observations

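Of the 68 expressed genes of the lysosome lists, 58 were higher and 10 lower in the B-Gal positive array in the deposited values, Gaa among the 10. Of all expressed genes 53.9% were higher. With the arrays centred on the receptor genes Fuca1 (-0.12), Ctsh (-0.14), Lamp2 (-0.08) and Hgsnat (-0.06) were lower too, so the 10 belong to the deposited scaling. All these genes are named after their values were seen. The lowest were Ctsf, a cysteine cathepsin, with log2 values of 6.93 in B-Gal positive and 8.24 in B-Gal negative cells (2.47-fold lower), and Ctsk, the collagen-degrading cathepsin of osteoclasts and fibroblasts, with 10.52 in B-Gal positive and 11.66 in B-Gal negative cells (2.20-fold lower). The sulfatases Arsa and Arsb differed by -0.86 and -0.80, the amidase Aga by -0.71 and the receptor Igf2r by -0.68. Smpd1, Laptm4a and Cd63 had the smallest differences of the 10, at -0.40, -0.38 and -0.37. The lysosomal genes with lower values thus include enzymes for glycogen (Gaa), sulfatide (Arsa), dermatan sulfate (Arsb) and glycoproteins (Aga).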
